A study of Daphnia magna with 24 samples.

Results

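A set of 49 array features was higher than in control animals in water from 2 of 4 sites at Walker Mine, downstream of the tailings and in Little Grizzly Creek, while the first exposure to mine portal water stayed low. The 49 are part of 7680 features on cDNA arrays of whole Daphnia magna, a freshwater crustacean used in aquatic toxicity testing. They were chosen by measured values. A feature needed exposure values in at least 2 exposures at each of the 4 sites, which 6504 features had. Its mean log ratio had to be at least 0.7 in both tailings and Little Grizzly Creek water, which held for 123. Of these, the 49 had a value below 0.5 in portal exposure 1, and the other 74 had 0.5 or more there. None of the 123 was blank in that exposure. Tailings, creek and portal exposure 1 values are therefore described below without a test. Only upstream water and portal exposures 2 and 3, whose values the rule did not use, were tested. The error of these tests is drawn from the tailings and creek exposures as well. Over features, some of the tested exposures correlated with portal exposure 1, as given below.

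Every array compared exposed with unexposed animals of one genetically homogeneous, purchased stock, all adult females of 14 to 16 days. Exposed animals spent 24 h at 23.5 °C in water taken above the mine (upstream), below its portal, below its tailings, or from Little Grizzly Creek, called creek water below. All field water was collected on one day. Controls were unexposed animals of the laboratory culture in COMBO, a defined medium. Each site had 3 exposures of 10 to 15 pooled animals, and each exposure 2 arrays with the dyes exchanged, 24 arrays in all, holding 5106 to 7548 values. An exposure value is the mean of both arrays and is blank where either array is blank. The labels call exposures biological replicates but do not say whether exposures shared control RNA, so the errors and p-values below measure the spread between exposures to one collection of each water. The design text says that copper differed between the sites and gives no concentration, so the sites were not ordered by copper.

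Copper is an essential cofactor of respiratory and antioxidant enzymes that is toxic in excess, and animals hold it in check by regulated uptake and export, by copper chaperones and by binding to metallothionein and glutathione. Adult female Daphnia reproduce mostly by parthenogenesis, moulting and releasing a brood in a regular cycle, so RNA of whole animals holds gut, cuticle, muscle, fat cells, ovary and embryos together. A change in such RNA cannot tell fewer cells of a type from less RNA per cell. None of the 49 identifiers matched a name or accession among the 28335 genes of the RefSeq table used here, so no gene, role or sequence is given for them, and gene families named above could not be counted.

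The ratios are read as log2 of exposed over control, the likely direction. Neither the base nor the direction is stated. The 2 arrays of each exposure, of opposite dye, correlated between 0.62 and 0.91 over features, so the deposited values already run one way within an exposure. Across different exposures of one dye orientation, 5 of 132 pairs of arrays correlated below -0.3, the lowest at -0.38, and all 5 set an exposure 2 array against an exposure 3 array. All 5 were pairs of first arrays of the exposures, and among second arrays, of opposite dye, the lowest was -0.27. Upstream exposure 3 was in 3 of the 5. Upstream exposure 2, portal exposure 3 and creek exposure 2 were in 2 each, and tailings exposure 2 in 1. Upstream exposures 2 and 3 gave -0.35 with each other on first arrays and -0.13 on second arrays. With exposure 1 of its own site, tailings exposure 2 correlated at 0.55 on first and 0.47 on second arrays. Creek exposure 2 gave 0.58 and 0.58, upstream exposure 3 0.51 and 0.51, and portal exposure 3 0.52 and 0.52. Upstream exposure 2 gave -0.18 and 0.081. The sign of these exposures is not settled by the labels. Should the deposited direction be control over exposed, each rise below is a fall.

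In tailings water the members' medians in exposures 1, 2 and 3 were 1.11, 1.21 and 1.20, and in creek water 1.01, 1.14 and 1.08. Of all 280 exposure values the members had at these sites, 277 were above 0 on both arrays of the exposure. All measured values of both sites were above 0 in 46 of the 49 members, but all were at or above 0.7 in 14. Site means ran from 0.70 to 3.40 in tailings water (median 1.09) and from 0.70 to 2.84 in creek water (median 0.99). The same medians over all 6504 features were -0.0073 and -0.0025. The median SD over exposures of one site was 0.39 in tailings and 0.41 in creek water for the members, against 0.18 and 0.15 over all features, while the 2 arrays of an exposure lay a median of 0.10 from their mean at both sites. The plot of members by exposure shows these levels.

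**Figure D1:**
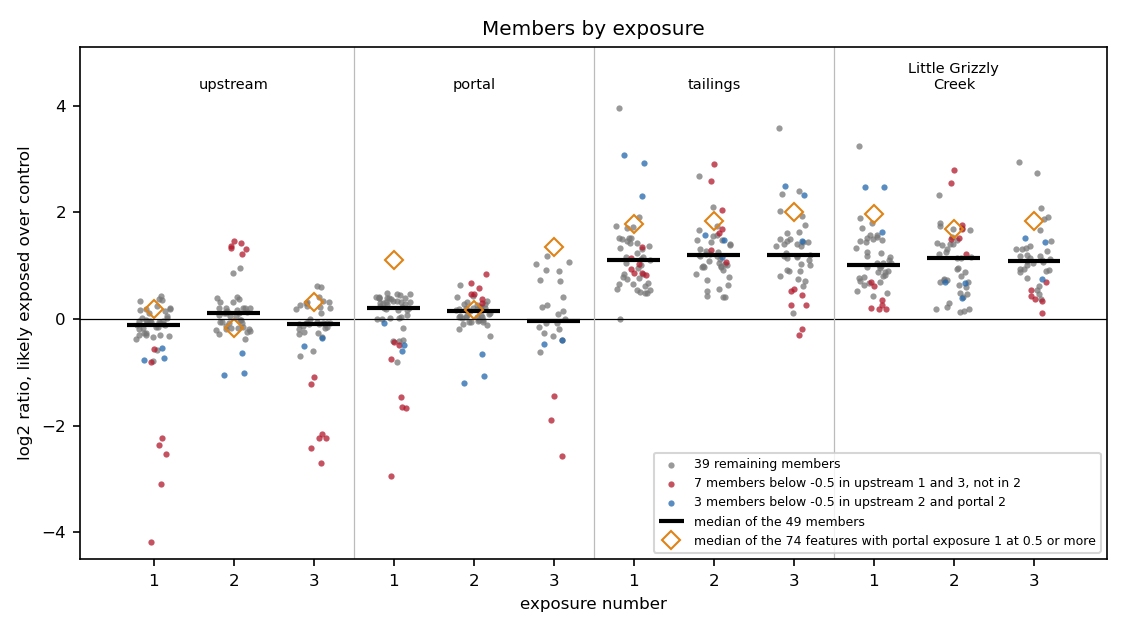
Log2 ratio (vertical axis) of each of the 49 members in the 12 exposures (horizontal axis, by site); points are members, bars their medians, and open diamonds the medians of the 74 features with portal exposure 1 at 0.5 or more. The member medians lie between 1.01 and 1.21 in tailings and creek water and between -0.10 and 0.21 in upstream and portal water.

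P7BD1 had the highest mean over tailings and creek water. It stood at 3.95, 2.68 and 3.58 in tailings exposures 1, 2 and 3 and at 3.24, 2.33 and 2.95 in creek exposures 1, 2 and 3. Upstream it was at -0.29, -0.28 and -0.28, and in portal exposures 1 and 2 at 0.39 and -0.19, with exposure 3 blank. All 6 tailings and creek values lay above every upstream and portal value. Its tailings mean of 3.40 ± 0.655 (SD, n = 3) would be 10.6-fold with base 2 and ranked 8 of 6504 features, and its creek mean of 2.84 ± 0.466 (SD, n = 3), 7.15-fold, ranked 22.

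The steadiest members over the 6 tailings and creek exposures were P12DH6, with an SD of 0.13 over those 6 values, and P10BD10, with 0.16. P12DH6 read 1.05, 1.27 and 1.25 in tailings water and 1.44, 1.27 and 1.33 in creek water, against 0.19, 0.20 and 0.30 upstream. Its portal values were 0.18, 0.04 and 0.92, so portal exposure 3 approached the lowest tailings value. P10BD10 read 1.42, 1.23 and 1.502 in tailings and 1.57, 1.40 and 1.14 in creek water, against -0.043, 0.049 and -0.0081 upstream and 0.024 and 0.16 in portal exposures 1 and 2. Its tailings and creek values did not overlap those of the other waters. Of all features with the same exposures measured (4463), the 2 most like P7BD1 by Pearson's r over 11 exposures were P3DG10 (0.97) and P10BD10 (0.97), both members. Features of one exposure come from the same arrays, and the likeness is a description only.

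At the other end, P4DA5 and A2D3 had the lowest means over both waters. P4DA5 read -0.0031, 1.31 and 0.80 in tailings and 0.71, 0.70 and 0.89 in creek water, with 0.18, 0.32 and 0.27 upstream and 0.24, 0.64 and 0.73 in portal water. Its tailings values span those of the other 3 waters, while every creek value lay above every upstream value. P4DA5 was also the member nearest to the limit on the tailings mean, at 0.704, where A3L18, at 0.674, fell just outside. On the creek mean A2D3 (0.701) was just inside and P4BE10 (0.697) just outside. On portal exposure 1 P4AE10 (0.492) was just inside and A1K2 (0.518) just outside.

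The rule used both tailings and creek water, so their difference in the members is described only. The tailings mean was the higher in 32 of 49 (65.3%), against 52.8% of all tested features. The median of tailings minus creek was 0.13, against 0.010. Within exposure 3 this difference ran from -1.34 to 1.92 among the members. Tailings lay above creek in all 3 exposure numbers in 12 of the 39 members with all 6 values (30.8%), against 985 of 4846 features (20.3%). P3CA2 had the largest excess, 1.08 between the site means. It read 1.91, 1.05 and 2.39 in tailings water and 1.01, 0.64 and 0.47 in creek water, with no overlap. P3DG10, with an excess of 0.82, overlapped between both waters. On the creek side P1DF7 and P10DH10 were higher in creek than in tailings water by site mean, with tailings minus creek at -0.32 and -0.28. P1DF7 read 1.13, 0.99 and 1.03 in tailings and 1.23, 0.80 and 2.08 in creek water, so creek exposure 3 was the highest of the 6 and creek exposure 2 the lowest. P10DH10 read 1.23, 1.74 and 1.40 in tailings and 1.54, 0.94 and 2.75 in creek water. Its creek exposure 3 also had the largest disagreement between dye-swapped arrays among the members, 4.17 on one and 1.32 on the other.

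Upstream water, which the rule did not use, gave no call among the members. Their medians in upstream exposures 1, 2 and 3 were -0.10, 0.11 and -0.091, and the median of their upstream means was -0.061, against -0.019 over all 6504 features. In limma's test against control (adjusted p under 0.05), 0 of 49 members passed, where 1 feature of 6504 passed (0.0154%). At an unadjusted p under 0.05, 1 member stood beside 1042 features (16%), and the smallest adjusted p among the members was 0.144. Such a p does not show a level of 0. The 95% interval of the upstream ratio ended below 0.7, the limit used at the other sites, in 40 of 49 members, and in 85.9% of all features. The median standard error was 0.23 for the members and 0.11 over all features. It is drawn from tailings and creek exposures as well, where the members spread more widely than all features. With only the upstream exposures fitted, 8 of 49 members and 1014 of 6504 features had an unadjusted p under 0.05 by limma. No member passed after adjustment in that fit.

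The highest upstream means were those of P1DF7, with -0.077, 0.96 and 0.60 in exposures 1, 2 and 3, and P4DA5, given above. P1DF7 averaged 0.49 (SE 0.25, adjusted p = 0.385 by limma) and P4DA5 0.25 (SE 0.19, adjusted p = 0.572). The lowest upstream means were those of A6J12 and A1D22. A6J12 read -2.36 and -2.24 in exposures 1 and 3, with exposure 2 blank, and averaged -2.30 (SE 0.50, 95% interval -3.54 to -1.06, adjusted p = 0.144 by limma). One array of exposure 2 gave 0.96 for it, and with single arrays used the estimate was -1.44 (adjusted p = 0.235). A1D22 read -4.19, 1.34 and -2.42 and averaged -1.76 (SE 0.87, adjusted p = 0.37 by limma). With the sign of upstream exposure 2 turned, it would be low in all 3 exposures, at a mean of -2.65 (adjusted p = 0.634). Means within 0.3 of 0 were found in 40 of the 49 members (81.6%) and in 81.9% of all features.

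In the direct view of exposures, all 3 tailings values lay above all 3 upstream values in 31 of the 39 members with 6 values, beside 17.8% of all features, and all 3 creek values in 23 of 37, beside 16% of all features. The rule used both waters, so nothing is read from these counts.

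**Figure D2:**
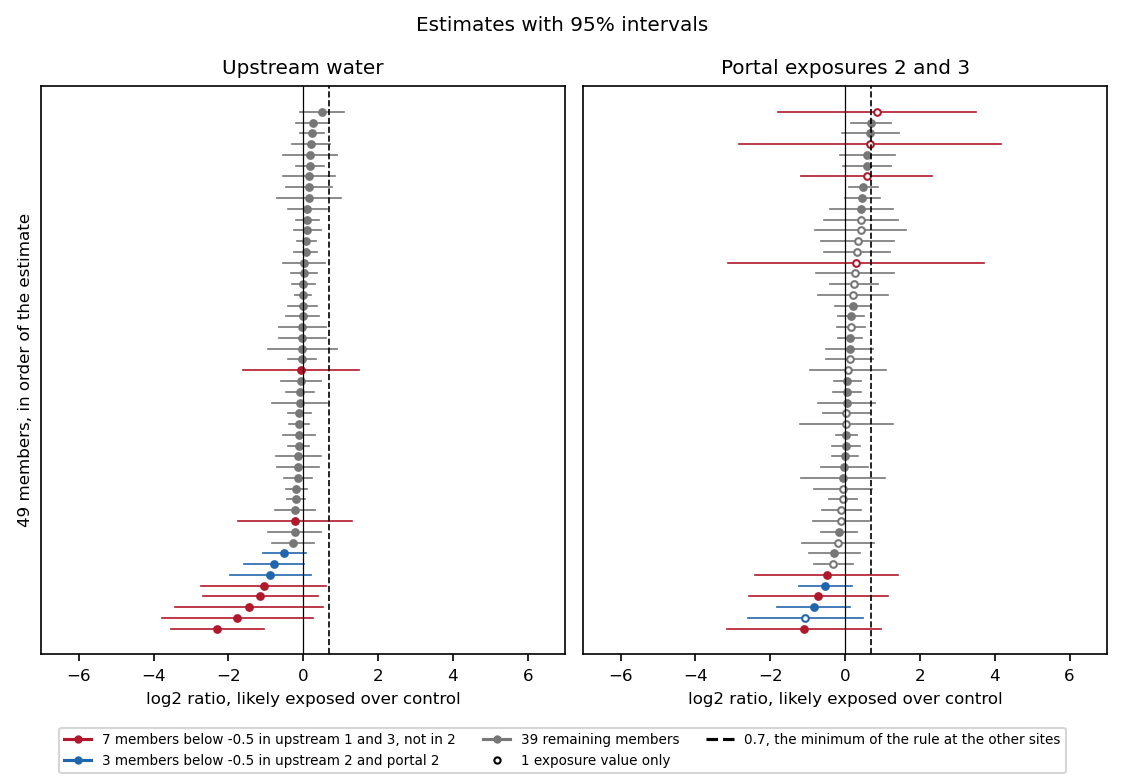
Estimated log2 ratio with 95% interval (horizontal axis) for each of the 49 members, in order of the estimate, in upstream water (left) and in portal exposures 2 and 3 (right); open points rest on 1 exposure value and the dashed line marks 0.7. Intervals end below 0.7 in 40 members upstream and in 20 in the portal exposures.

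Portal water was low in the members by choice in exposure 1, with a median of 0.21, a lowest value of -2.94 (A1D22) and 15 of 49 values below 0. The second portal exposure had a median of 0.16, with 36 of 49 above 0 (73.5%, against 47.4% of all tested features) and 4 at or above 0.5 (8.16%, against 2.52%). The third had a median of -0.033 and 13 of 26 above 0 (50%, against 46.2%), with 7 at or above 0.5 (26.9%, against 18.0%). It was blank in 23 of 49 members (46.9%) and in 31.8% of all tested features, so tests of portal exposures 2 and 3 rest on exposure 2 alone in 23 members. None of the 49 passed against control by limma, where 0 features of 6504 passed (0%). At an unadjusted p under 0.05 there were 2 members (4.08%) and 982 features (15.1%). The upper end of the 95% interval was below 0.7 in 20 of 49 members and in 74.1% of all features. In the remaining members the interval reached 0.7 or more, so a level of that size lay within their error.

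The 2 members with an unadjusted p under 0.05 in portal exposures 2 and 3 were P4DA5 and P12DH6, both upward. P4DA5 averaged 0.68 (SE 0.24, adjusted p = 0.251 by limma) and P12DH6 0.48 (SE 0.17, adjusted p = 0.251). Without portal exposure 2 the test rests on exposure 3 alone. P12DH6 then passed, at 0.92 (adjusted p = 0.00815), in a fit that tested 4434 features and called 701 of them instead of 0. Its portal exposure 3 rests on dye-swapped arrays that read 1.56 and 0.29, and that of P4DA5 on arrays that read 1.30 and 0.15. The highest mean, 0.85 in A2D3 (SE 1.14, adjusted p = 0.805), rests on exposure 2 only. The lowest were P6AG12, with 0.37 in exposure 2 and -2.56 in exposure 3 (mean -1.10, SE 0.90, adjusted p = 0.635), and P5CA10, with -1.06 in exposure 2 only (SE 0.65, adjusted p = 0.496), or -0.11 with single arrays used. With exposure number as a replicate block, P5DE4 (-0.94, adjusted p = 0.0348) and P4DH2 (-0.78, adjusted p = 0.0359) passed below control in portal exposures 2 and 3, among 92 features called instead of 0. With exposure number as a random block, whose correlation is estimated, 0 members and 0 features passed. The block estimates a level for each exposure number over the 4 waters. Portal exposure 1 has a mean of its own and adds nothing to that level.

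Portal exposures 2 and 3 were also set against upstream water directly. No member passed by limma, and neither did any of the 6504 features (0%). At an unadjusted p under 0.05 there was 1 member, A6J12, beside 182 features (2.8%). With only the exposures compared in the fit, there were 2 members and 99 features. A6J12 was higher in portal water by 2.88 (SE 0.87), but this sets a portal value of exposure 2 (0.58) against upstream exposures 1 and 3. In exposure 1, measured in both waters, it read -0.48 in portal and -2.36 in upstream water. Its single arrays read 0.96 in upstream exposure 2 and -2.74 in portal exposure 3.

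**Figure D3:**
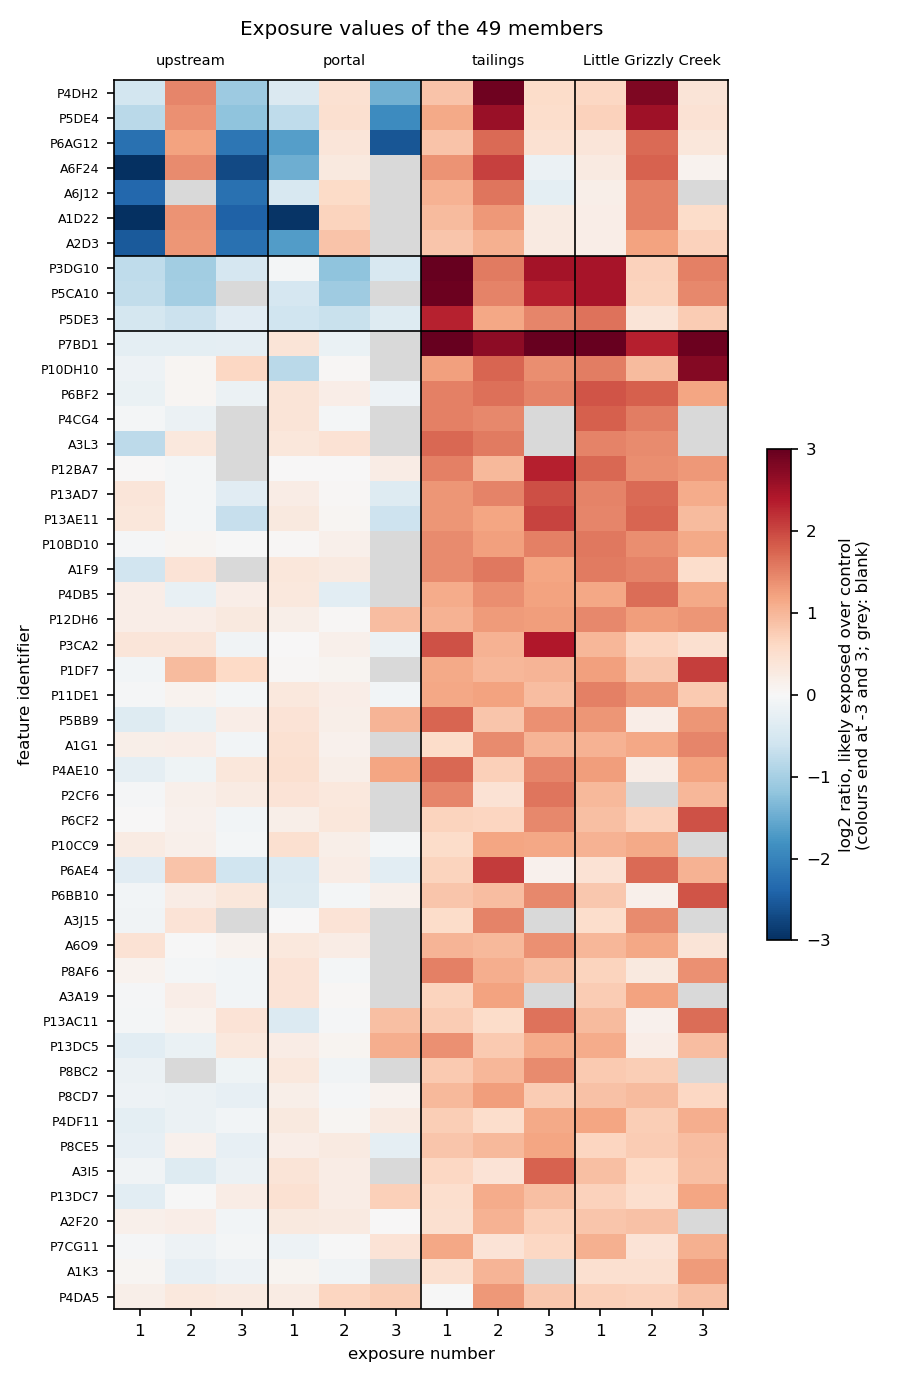
Exposure values of the 49 members (rows, by identifier) in 12 exposures (columns, by site), as log2 ratios on a colour scale that ends at -3 and 3, with blanks in grey; horizontal lines divide the 7 members below -0.5 in upstream exposures 1 and 3 but not in 2, the 3 below -0.5 in upstream exposure 2 and portal exposure 2, and the remaining 39. The tailings and creek columns are above 0 apart from 3 tailings values, while 6 of the first 7 rows change from blue to red and back across upstream exposures and the other, A6J12, is blank in exposure 2.

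The members did not share one pattern over the 12 exposures. A first group of 7 was set apart after the values were seen: A1D22, A2D3, A6F24, A6J12, P4DH2, P5DE4 and P6AG12. The choice took upstream values below -0.5 in exposures 1 and 3, and above 0.5 or blank in exposure 2. It also required these members to be below 0 in portal exposure 1. Their medians in upstream exposures 1, 2 and 3 were -2.36, 1.35 and -2.24, which restates that choice. P6AE4, at -0.34, 0.86 and -0.60 upstream, missed the choice only through upstream exposure 1. Its exposure 2 was also the highest at every site, so the 7 are not sharply set off from the remaining members. Exposure 2 was the highest of its site in all 7 at portal, tailings and creek. In the 6 with a value upstream it was the highest by choice. Of all tested features with 3 values at a site, exposure 2 was the highest in 25.1% in tailings and 31.2% in creek water. In the 7, exposure 2 exceeded the mean of exposures 1 and 3 by a median of 1.79 in portal, 1.25 in tailings and 1.34 in creek water. Over all tested features this excess had medians of -0.0018, -0.040 and -0.045. The portal excess of the 7 follows in part from the choice on portal exposure 1. Whether same-numbered exposures shared control animals is not given in the labels, and the part of controls in it was not tested.

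P4DH2 and P5DE4 had the largest SDs over the 6 tailings and creek exposures, 1.17 and 0.99. P4DH2 read 0.87, 2.91 and 0.56 in tailings and 0.62, 2.79 and 0.38 in creek water, -0.56, 1.46 and -1.09 upstream, and -0.44, 0.47 and -1.45 in portal water. P5DE4 read 1.15, 2.59 and 0.52, then 0.70, 2.54 and 0.44, against -0.81, 1.36 and -1.22 upstream and -0.75, 0.47 and -1.89 in portal water. Within one exposure number both were higher in tailings and creek water than upstream, so the order of waters held while the level changed with the number. A2D3 read 0.83, 1.06 and 0.27 in tailings and 0.19, 1.22 and 0.69 in creek water, but its upstream exposure 2 stood at 1.31, above all 6. Its tailings and creek levels thus overlapped that upstream exposure and lay far above the other upstream exposures, at -2.53 and -2.24.

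In 4 of the 7, portal exposure 3 was blank because 1 of its arrays was blank. On the other array these 4 stood at -5.29 (A1D22), -4.77 (A2D3), -4.61 (A6F24) and -2.74 (A6J12), while the 3 with a full exposure value had -2.56, -1.89 and -1.45. Portal exposure 3 was thus low in all 7 where measured at all. With single arrays used, in a fit of 24 arrays with a dye term, the estimate of A2D3 for portal exposures 2 and 3 changed from 0.85 to -1.55 (adjusted p = 0.372 by limma).

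**Figure D4:**
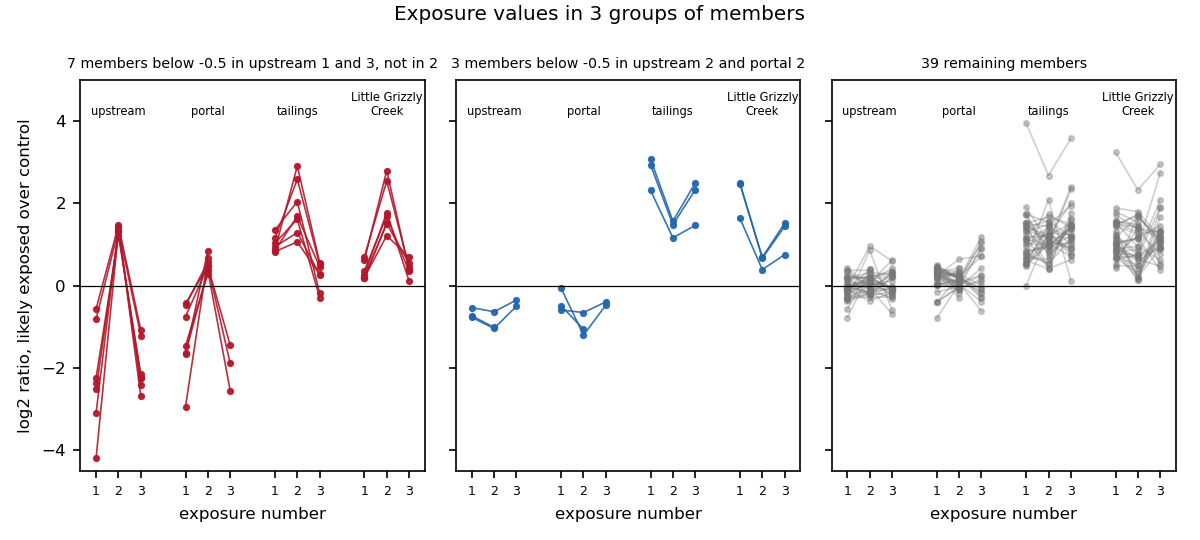
Log2 ratios of the members (vertical axis) by exposure number within each site (horizontal axis), with 1 line per member and site, for the 7, the 3 and the remaining 39 members. Exposure 2 is the highest wherever the 7 have a value for it (6 of them upstream), the 3 dip in exposure 2 and are below 0 in upstream and portal water, and the 39 lie between -0.80 and 1.19 in upstream and portal water.

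A second group of 3, P3DG10, P5CA10 and P5DE3, also set apart after the values were seen, lay below -0.5 in upstream exposure 2 and portal exposure 2, and below 0 in every measured upstream and portal exposure. P3DG10 read 3.08, 1.57 and 2.496 in tailings and 2.47, 0.69 and 1.52 in creek water, -0.77, -1.04 and -0.50 upstream and -0.065, -1.21 and -0.47 in portal water. P5CA10 read 2.93, 1.48 and 2.33 in tailings and 2.48, 0.67 and 1.44 in creek water, against -0.74 and -1.02 in upstream exposures 1 and 2 and -0.49 and -1.06 in portal exposures 1 and 2. P5DE3 had the same order at smaller size, with 2.32, 1.16 and 1.46, then 1.64, 0.39 and 0.75, against -0.53, -0.64 and -0.35 upstream and -0.59, -0.66 and -0.40 in portal water. In all 3 the second exposure was the lowest measured value at each of the 4 sites. Upstream and in portal water this follows in part from the choice. Of all tested features with 3 values at a site, exposure 2 was the lowest in 37.1% in tailings and 42.1% in creek water. None passed against control upstream by limma, with adjusted p-values of 0.326 for P3DG10 (-0.77, SE 0.35), 0.409 for P5CA10 (-0.88, SE 0.46) and 0.364 for P5DE3 (-0.51, SE 0.25). A single array of portal exposure 3 gave 1.14 for P5CA10, outside the range of its portal exposure values.

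In the remaining 39 members, medians were -0.048, 0.065 and -0.071 in upstream exposures 1, 2 and 3 and 0.29, 0.12 and 0.15 in the portal exposures. Their tailings medians were 1.11, 1.12 and 1.31 and their creek medians 1.04, 0.95 and 1.14. The lowest upstream value among them was -0.78 and the highest 0.96, values that follow in part from how the 7 were set apart. Of all 49 members, 44 had 3 values in tailings water. Exposure 2 was the highest in 20 of them (45.5%, against 25.1% of all tested features) and the lowest in 19 (43.2%, against 37.1%). In creek water, with 40 such members, it was the highest in 12 (30%, against 31.2%) and the lowest in 20 (50%, against 42.1%). Exposure 2 was thus neither the highest nor the lowest throughout the members.

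The 74 features with the same rise in tailings and creek water and a first portal exposure of at least 0.5 had higher levels at both sites, with a median tailings mean of 1.74 and a median creek mean of 1.74, against 1.09 and 0.99 in the 49. Portal exposure 1 divided both sets by rule. In portal exposure 3, which the rule did not use, their median was 1.35 with 33 of 41 at or above 0.5, beside 7 of 26 in the 49. In portal exposure 2 the medians were 0.18 and 0.16. Upstream, the 74 had medians of 0.20, -0.16 and 0.33 in exposures 1, 2 and 3, beside -0.10, 0.11 and -0.091 in the 49. These values are set side by side without a test, since features of one exposure are not replicates. Over features, portal exposure 1 correlated with upstream exposure 1 at 0.63 on first and 0.60 on second arrays. With upstream exposure 3 this was 0.59 and 0.35, with upstream exposure 2 -0.28 and 0.032, and with portal exposure 3 0.52 and 0.52. The split on portal exposure 1 can thus carry over to upstream and other portal values, and nothing is read from these differences.

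Identifiers come in 2 forms, and 36 of the 49 members (73.5%) begin with P, beside 71.9% of the tested features. By the number after the first letter, features fall into groups of 384. P4 held the most members, 6 (12.2% of members and 5.63% of tested features), and P9, A4, A5 and A7 held 0. What these numbers stand for is not given in the labels. Only P4DA5 with P4DB5 and P5DE3 with P5DE4 were neighbours if the last letters and digits are read as rows and columns, with r = 0.51 over 11 and 0.48 over 12 exposures. At least 1 exposure was blank in 26 of the 49 members (53.1%) and in 43.7% of all tested features.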

How the data were processed

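The authors deposited 1 log ratio per feature and array, taken here to be log2. Each array was centred near 0 as deposited (medians from -0.0265 to 0.0177), with SDs over features from 0.297 to 1.05. Scanner, background correction, normalisation, filter and log base are not given in the sources used here; blank cells were taken as values left out. Spot brightness is not known for these ratios, and precision is limited by how many arrays there are.

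Both arrays of an exposure were averaged. limma 3.58.1 in R 4.3.3 (lmFit, eBayes) fitted the 12 exposures of the 6504 tested features with 5 means: upstream, portal exposure 1 on its own because the rule used it, portal exposures 2 and 3, tailings and creek. Tests are two-sided, with Benjamini-Hochberg adjustment over all tested features and a threshold of 0.05. A test against 0 leaves out the spread of control animals where control RNA was shared. On simulated data with 200 of 6504 features changed by 1 unit the fit recovered 82.5% upstream. In portal exposures 2 and 3 it recovered 67%, and between both 61.5%. For 0.5 units the shares were 39.5%, 0.5% and 0.5%. Simulated exposures varied independently, and the changed features were drawn at random from all tested. Median standard errors of the members were larger, 0.23 against 0.11 over all features upstream and 0.31 against 0.15 in portal exposures 2 and 3. The shares are therefore not those of the members.

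Features were named by a rule on the ends of each ordering (2 highest and 2 lowest of site means, of their differences and of SDs, and the nearest to each limit); both small groups were named after their values were seen. The members, lists and rule were chosen with earlier results of these data known. Same-numbered exposures of upstream and portal water deviated together from their site means (r from 0.51 to 0.82 over features). So did tailings with creek (0.26 to 0.65) and portal with creek (0.15 to 0.59). Upstream with creek ran from -0.13 to 0.60, upstream with tailings from -0.25 to 0.39, and portal with tailings from -0.13 to 0.10. The deviations were thus not common to all waters. A fit with the exposure number as a replicate block was an alternative. Others were quantile and median absolute deviation scaling, other minimums of values, a 24-array fit with a dye term, only the exposures compared, upstream exposure 2 turned, and each exposure left out.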

Additional observations from a re-analysis of the deposited data

Results flagged for a closer look

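P4DF11 was the only one of 25 members with all 5 values whose upstream exposures all lay on one side of 0 and whose portal exposures 2 and 3 lay on the other. It ranged from -0.30 to -0.072 upstream and from 0.068 to 0.26 in those portal exposures, a difference of 0.349. The difference did not pass limma's test (adjusted p = 0.999982), and such opposite signs were found in 106 of 4112 tested features (2.58%).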

How the results depend on the processing

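No member was called upstream, or between portal exposures 2 and 3 and upstream, in any of 20 alternatives each. Over all features the upstream count of 1 became 169 after quantile normalisation, 164 after scaling by the median absolute deviation, 238 with the replicate block (1 with it as a random block), 130 with 24 arrays and a dye term, 0 with only the exposures compared or upstream exposure 2 turned, and 0 to 7 with single exposures left out. In portal exposures 2 and 3 the replicate block called 92 features and 2 members instead of 0 (0 and 0 as a random block), and leaving out exposures gave 0 to 701 features and 0 to 1 members. Against upstream it gave 0 to 44. The highest counts came without portal exposure 2, where 4434 features remained and the lone exposure 3 is assumed to vary like the others. The cause was not tested. The rule listed 30 features with portal exposure 1 below 0.3, 23 with all 3 exposures at every site, and 37 to 51 without single tailings or creek exposures, of which 34 to 44 were among the 49. The members' upstream median of -0.061 moved to between -0.053 and 0.018, and changed sign without upstream exposure 1. In portal exposures 2 and 3 the median of 0.072 moved to between -0.033 and 0.158, and changed sign without portal exposure 2. These moves were smaller than the SD between exposure medians, 0.117 and 0.135. With 2 portal exposures, leaving out 1 can hardly pass that SD, so nothing is read from it there. Single estimates were followed only for the 2 highest and 2 lowest members in upstream water and in portal exposures 2 and 3. Of these 151 estimates over the alternatives, 4 changed sign and the others kept direction and side. P1DF7 upstream went to -0.147 with exposure 2 turned. A2D3 in portal exposures 2 and 3 went to -0.261 with the block and -1.55 with 24 arrays. P6AG12 went to 0.367 without portal exposure 3, and to -2.56 without portal exposure 2. P5DE4, P4DH2 and P12DH6, whose calls changed as given above, are outside this set.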

Other observations

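The 7 members at or above 0.5 in portal exposure 3, a split made after the values were seen, ranged from 0.71 to 1.19 there, with a median of 0.92. In upstream exposure 3 all 7 were above 0, from 0.20 to 0.42, beside 47.5% of all tested features. The 19 members below 0.5 in portal exposure 3 had a median of -0.25 in upstream exposure 3 over 18 values. Over features, upstream exposure 3 correlated with portal exposure 3 at 0.77 on first and 0.65 on second arrays. A split on portal exposure 3 thus carries over to upstream exposure 3, and nothing is read from this difference. In creek exposure 2 the 7 had a median of 0.22, beside 1.14 in the 19, and in creek exposures 1 and 3 they had medians of 1.12 and 1.20, beside 1.04 and 0.94. These are values of single exposures, with no test.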
